A study of Mus musculus with 24 samples.

Results

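The short non-coding RNAs described here are the Y RNAs Rny1 and Rny3, the 7SK RNA Rn7sk, the 7SL RNAs Rn7s1 and Rn7s2, and the RNA subunits of 2 ribozymes, Rmrp and Rpph1. They were picked by gene name, and these names had been chosen on low counts in the pull-downs of the same libraries, so their low IP values are a description and carry no test. The 7 genes take 8 of the 57010 rows of each of the 2 count tables, because Rmrp is listed under 2 identifiers. The series measured RNA of GT1-7 cells, immortalised mouse neurons of the hypothalamus that produce gonadotropin-releasing hormone, and its title names RNA binding by Mkrn3, a makorin protein with zinc fingers and a RING domain. In the RNA immunoprecipitation (RIP) experiment, cells received 6 µg of a GFP-Mkrn3 or a GFP plasmid for 24 h. RNA was taken from beads that bind GFP (IP) and from 5% of the lysate (input), which gave the groups GFP-Mkrn3 IP, GFP-Mkrn3 input, GFP IP and GFP input. The fractionation experiment used a line stably expressing GFP-Mkrn3, labelled Mkrn3ox, and unmodified cells, labelled wt, with cytoplasmic and total RNA of each. Each of the 8 groups held 3 libraries, made by CEL-seq2, a method that reads RNA 3' ends. All groups come from the same cell line, both RIP arms carry a GFP plasmid, and the sources used here give neither the promoter of the plasmids nor whether the Mkrn3ox line is 1 clone. Nothing in the labels ties the 3 libraries of a group to different cultures, so p-values measure only the spread between these libraries, which may be technical.

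RNA polymerase III makes all of these RNAs, which lack the poly(A) tail of an mRNA. Y RNAs are short stem-loop RNAs bound by the Ro60 and La proteins and are known for roles in RNA quality control and in DNA replication. The 7SK RNA is a nuclear scaffold on which HEXIM proteins hold the elongation kinase P-TEFb inactive, with MEPCE and LARP7 protecting the RNA. The 7SL RNA is the backbone of the signal recognition particle, which brings ribosomes that make secreted proteins, hormone precursors among them, to the endoplasmic reticulum. Rmrp is the RNA of RNase MRP, which cuts precursor ribosomal RNA, and Rpph1 is the RNA of RNase P, which trims the 5' ends of tRNAs.

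The RIP libraries held 6254703 to 14575652 counts over 15566 to 20599 detected genes, and the fractionation libraries 374386 to 759271 counts over 8309 to 11284 genes. Mkrn3 averaged 9542 ± 414 CPM, which is the count put on a common library size by TMM in edgeR, in GFP-Mkrn3 IPs and 3688 ± 74.2 CPM in GFP-Mkrn3 inputs. It averaged 6.76 ± 1.01 CPM in GFP IPs and 6.20 ± 2.33 CPM in GFP inputs (SD, n = 3 each), so it was high only in the libraries labelled GFP-Mkrn3. In the fractionation table Mkrn3 had 0 counts in all Mkrn3ox total and wt total libraries and at most 5 counts in a Mkrn3ox cytoplasm library, which does not check the line's label. Of the markers of the GnRH neuron line, Gnrh1 stood at 319 CPM in GFP-Mkrn3 inputs and 313 CPM in GFP inputs, while Snap25 was at 0 and Stmn2 at 0 to 2 counts per RIP library. Map2 stood at 76.7 CPM in GFP-Mkrn3 inputs and 66.5 CPM in GFP inputs. In total RNA, Uchl1 averaged 2.54 CPM in wt and 84.0 CPM in Mkrn3ox cells, and Tubb3 0 and 7.72 CPM. Of the markers of other cell types, the collagen gene Col1a2 stood at 156 CPM in GFP-Mkrn3 inputs and 154 CPM in GFP inputs, while the leukocyte gene Ptprc was at 0 in the inputs. The fibroblast genes differed among themselves. In wt total RNA, Col1a2 averaged 405 CPM, Col1a1 6.03 CPM and Dcn 0 CPM. In Mkrn3ox total RNA, they averaged 452, 52.5 and 4.67 CPM. Of astrocyte genes, Aqp4 was at 0 and Aldh1l1 at 12.9 CPM in GFP-Mkrn3 inputs and 10.6 CPM in GFP inputs.

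In the RefSeq annotation of GRCm38.p6, Rny3 lies at chr6:47781624-47781724 and Rny1 at chr6:47788070-47788180. Rn7sk lies at chr9:78175302-78175633, Rn7s1 at chr12:69159295-69159593, Rn7s2 at chr12:69361183-69361481, Rmrp at chr4:43492785-43493059 and Rpph1 at chr14:50807447-50807771. No annotated gene overlaps any of them, although Rps29 lies 109 bp from Rn7s1, Parp2 126 bp from Rpph1, and C920006O11Rik and Ccdc107 281 bp from Rn7sk and Rmrp. Of the 7 genes, 6 had at least 1 count in the RIP experiment, and 4 (Rn7sk, Rny1, Rny3 and Rn7s2) were among the 13052 genes with enough counts to be tested. That filter keeps a gene through the group where it is high, so these 4 do not stand for all 7.

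Rn7sk, the 7SK RNA, made up 99.4% to 99.9% of the counts of these genes in every RIP library, CPM being a share of each library and not an amount of RNA. It stood at 702, 836 and 484 CPM in the 3 GFP-Mkrn3 IPs, against 12532, 11255 and 10485 CPM in the GFP-Mkrn3 inputs. It stood at 1292, 1321 and 1389 CPM in the GFP IPs, against 10671, 9959 and 11403 CPM in the GFP inputs. Every IP library was below every input library, and every GFP-Mkrn3 IP was below every GFP IP. Over all 13052 tested genes, 12.8% were called lower in IP than in input with GFP-Mkrn3, and 25.2% with GFP (edgeR, adjusted p under 0.05). Between the 2 kinds of IP, 2246 genes were called lower with GFP-Mkrn3. How many genes separate fully was not counted, so this separation, here and for the RNAs below, is a description. The fitted log2 difference between IP and input was -4.08 (SE 0.150) with GFP-Mkrn3, a level 16.9-fold lower in the IP, and -3.00 (SE 0.143) with GFP, 8.0-fold lower in the IP. The IP level as a share of the input of the same number was 5.60%, 7.43% and 4.61% with GFP-Mkrn3 and 12.1%, 13.3% and 12.2% with GFP. The replicate numbers did not pair the libraries, so this matching is arbitrary, for Rn7sk and for the Y RNAs below. The log2 difference of GFP-Mkrn3 IP minus GFP IP was -0.98 (SE 0.134), and that of the 2 IP-to-input differences was -1.08 (SE 0.188), both given without a test.

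Rny3, a Y RNA, had 7, 20 and 9 counts in GFP-Mkrn3 IPs, against 210, 218 and 202 counts in GFP-Mkrn3 inputs. It had 25, 11 and 6 counts in GFP IPs, against 233, 240 and 231 counts in GFP inputs. The IP and input libraries did not overlap with either plasmid, while the 2 kinds of IP overlapped. The means were 0.976 ± 0.324 CPM in GFP-Mkrn3 IPs, 26.2 ± 2.78 CPM in GFP-Mkrn3 inputs, 1.86 ± 1.18 CPM in GFP IPs and 28.9 ± 4.10 CPM in GFP inputs (SD, n = 3 each). The log2 difference of IP minus input was -4.68 (SE 0.283) with GFP-Mkrn3 and -3.91 (SE 0.276) with GFP. As a share of the input of the same number, Rny3 stood at 2.39%, 4.46% and 4.35% in GFP-Mkrn3 IPs and 9.60%, 4.86% and 3.99% in GFP IPs. Between the 2 kinds of IP the log2 difference of Rny3 was -0.92 (SE 0.392), and it was -0.26 without replicate 1 of the GFP IP, the library with 25 counts.

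Rny1, the other Y RNA, had 5, 7 and 3 counts in GFP-Mkrn3 IPs, against 116, 164 and 177 counts in GFP-Mkrn3 inputs. It had 1 count in each of the 3 GFP IPs, against 222, 151 and 160 counts in GFP inputs. The log2 difference of IP minus input was -5.44 (SE 0.336) with GFP-Mkrn3, 43.4-fold lower in the IP. With GFP, the 3 counts summed over the IPs set the level 157-fold below the inputs, with a 95% exact counting interval of 53.5 to 764. As a share of the input of the same number, Rny1 stood at 3.09%, 2.07% and 1.66% in GFP-Mkrn3 IPs and 0.403%, 0.702% and 0.961% in GFP IPs. Rny1 was thus the only one of the 3 best counted RNAs with a higher mean in GFP-Mkrn3 IPs than in GFP IPs, at 0.413 ± 0.0662 CPM in GFP-Mkrn3 IPs and 0.140 ± 0.0256 CPM in GFP IPs (SD, n = 3 each). The log2 difference of GFP-Mkrn3 IP minus GFP IP was 1.52 with an SE of 0.821, and it rests on 15 counts in GFP-Mkrn3 IPs and 3 counts in GFP IPs. Rn7s2, with fewer counts, went the same way, with means of 0.112 CPM in GFP-Mkrn3 IPs and 0 CPM in GFP IPs.

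Summed over a group's libraries, there were 0.417 counts of Rny1 per count of Rny3 in GFP-Mkrn3 IPs (95% exact interval 0.212 to 0.780) and 0.725 in GFP-Mkrn3 inputs (0.642 to 0.820). The ratio was 0.0714 in GFP IPs (0.0142 to 0.224) and 0.757 in GFP inputs (0.675 to 0.848). The intervals of the 2 inputs overlapped, that of the GFP IPs lay below that of the GFP inputs, and that of the GFP-Mkrn3 IPs overlapped those of its input and of the GFP IPs. The GFP IP ratio rests on 3 counts of Rny1, was 0.04, 0.0909 and 0.167 in the 3 libraries, and was 0.118 (0.0132 to 0.496) without replicate 1 of the GFP IP. These intervals, like all counting intervals and floors here, cover counting error only.

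Rn7s2, a 7SL RNA, had 3, 1 and 0 counts in GFP-Mkrn3 IPs, against 4, 13 and 8 counts in GFP-Mkrn3 inputs. It had 0 counts in all GFP IPs, against 21, 32 and 20 counts in GFP inputs. Every IP library lay below every input library of its plasmid. The summed counts set the GFP-Mkrn3 IP 9.19-fold below its input (95% exact counting interval 3.17 to 36.3). With 0 counts, the GFP IP lay at least 17.1-fold below its input by the lower end of the 95% exact counting interval. Taking 3 counts over the group as the limit that a count of 0 allows gave 21.5-fold, the bound drawn in the figures. The near-identical copy Rn7s1 had 2 counts in a single GFP-Mkrn3 IP, 2 counts in a single GFP input and 0 elsewhere. Reads of the 2 copies could be split or dropped in the counting, so each copy's count is uncertain, and the counts of both are far below what 7SK gave.

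Of the ribozyme RNAs, Rpph1 had 1 count, in a GFP-Mkrn3 IP, and 0 in the other 11 RIP libraries. Rmrp had 0 counts under both of its identifiers in all 12 RIP libraries. Neither RNA was therefore detectable at this depth, in inputs as well as in IPs, and no direction can be given for either. For Rmrp and Rpph1 the inputs hold no level against which a pull-down could be set, and for Rn7s1 they hold 2 counts.

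**Figure D1:**
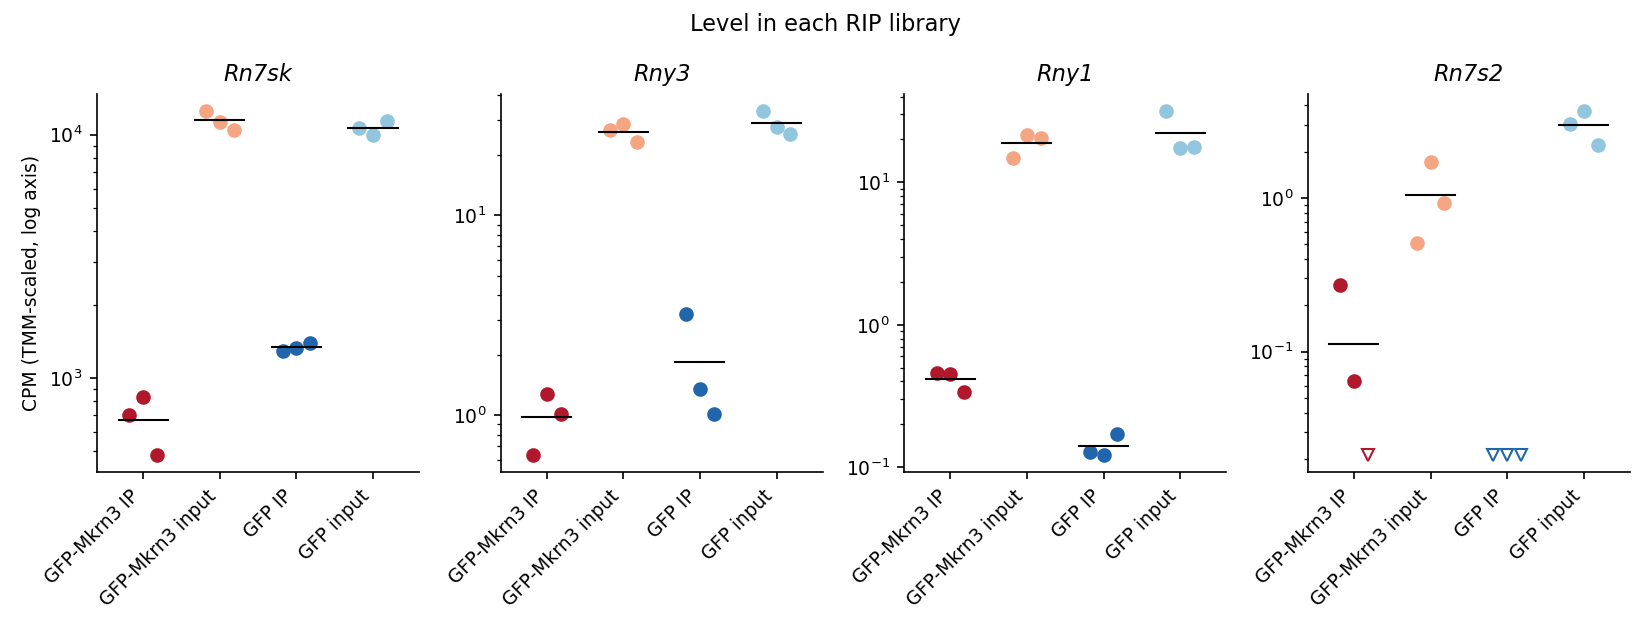
CPM on a log axis of Rn7sk, Rny3, Rny1 and Rn7s2 in each RIP library, with a line at the mean of the 3 libraries of each group and open triangles for libraries with 0 counts. Each IP library lies below each input library of the same plasmid for all 4 RNAs. How many of all tested genes separate this way was not counted. The GFP-Mkrn3 IPs lie below the GFP IPs for Rn7sk and above them for Rny1.

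Among the 13052 tested genes, Rny1 had the second lowest IP-to-input value with GFP-Mkrn3 (rank 2 from the lowest), Rny3 rank 5, Rn7sk rank 11 and Rn7s2 rank 18. With GFP, Rny1 had rank 2, Rny3 rank 10 and Rn7sk rank 26 by the fitted values, while Rn7s2, at 0 counts in the IP, has no value that fixes a rank. The median log2 change of all tested genes was 0.0285 with GFP-Mkrn3 and -0.0045 with GFP. Both comparisons feed the choice of these genes, so the ranks only place them. In all, these RNAs took 0.0501% to 0.0898% of the counts in GFP-Mkrn3 IPs and 1.05% to 1.25% in GFP-Mkrn3 inputs. They took 0.120% to 0.131% in GFP IPs and 1.02% to 1.15% in GFP inputs.

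**Figure D2:**
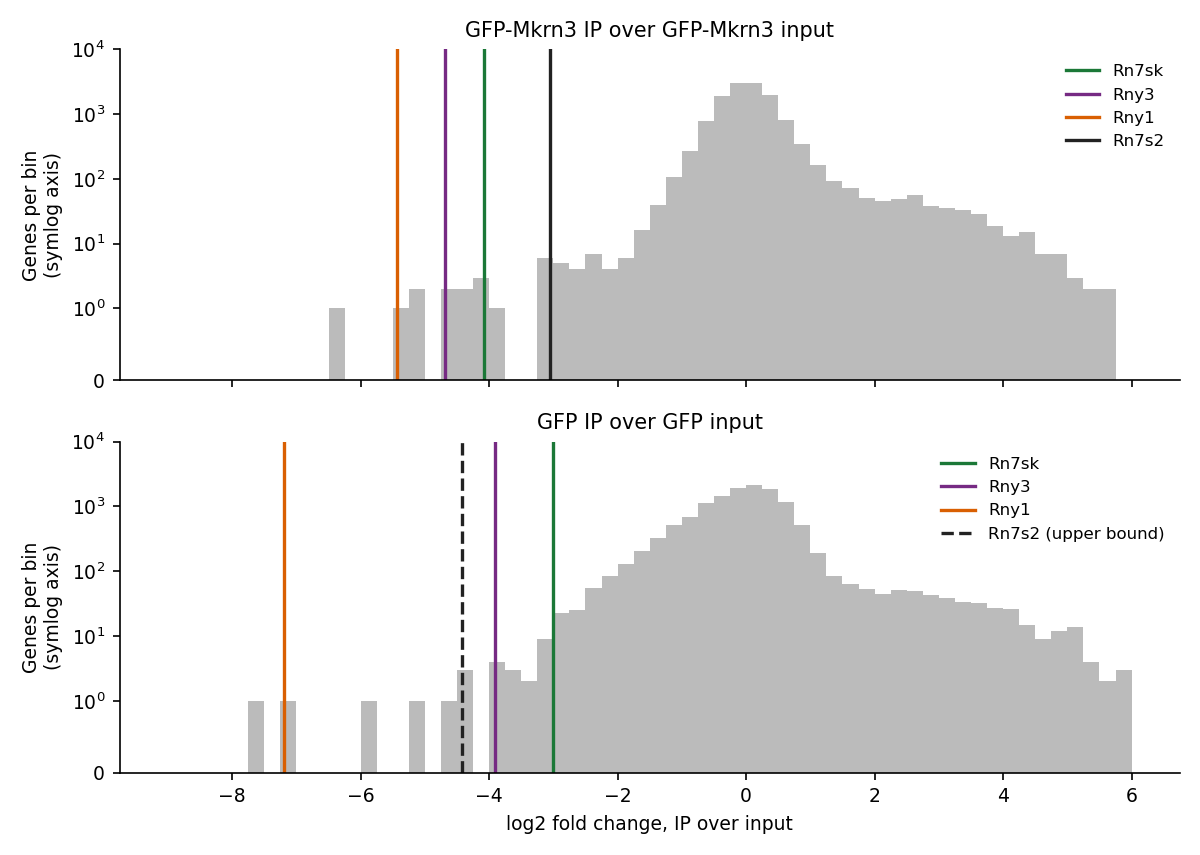
Number of tested genes per bin of 0.25 in log2 fold change of IP over input (symlog axis), for GFP-Mkrn3 above and GFP below, with vertical lines at Rn7sk, Rny3, Rny1 and Rn7s2. The lines stand at the low end of both distributions, and the dashed line is the bound for Rn7s2, which had 0 counts in the GFP IPs.

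The inputs allow a test, since the choice of genes used IP against input and not the inputs against each other, although the inputs are the denominators of that choice. None of Rn7sk, Rny3 and Rny1 passed an adjusted p under 0.05 in GFP-Mkrn3 input against GFP input, by edgeR's quasi-likelihood test or by DESeq2. Their unadjusted p by the edgeR test were 0.469, 0.505 and 0.302. Of all 13052 tested genes, 0.00766% were called higher and 0.00766% lower in this comparison, and 734 had an unadjusted p under 0.05. Rn7sk averaged 11424 ± 1034 CPM in GFP-Mkrn3 inputs and 10678 ± 722 CPM in GFP inputs (SD, n = 3 each), a log2 difference of 0.10 with a 95% interval of -0.179 to 0.374 (edgeR, adjusted p = 0.962). The difference was -0.14 for Rny3 (interval -0.563 to 0.287, edgeR adjusted p = 0.967) and -0.23 for Rny1 (interval -0.685 to 0.224, edgeR adjusted p = 0.930; 0.11 without replicate 1 of the GFP input). Each interval leaves room for a difference in either direction, and in bulk RNA fewer cells of a kind and less RNA per cell cannot be told apart. Rn7s2 had 25 counts over the GFP-Mkrn3 inputs and 73 over the GFP inputs. It had enough counts for the fit only through the GFP inputs, where it was high, so this difference is a description without a test.

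By mean CPM, the order of levels in the inputs was Rn7sk, Rny3, Rny1 and Rn7s2. Rny3 averaged 26.2 CPM in GFP-Mkrn3 inputs and 28.9 CPM in GFP inputs, and Rny1 18.9 CPM and 22.3 CPM in the same groups. The order was the same per kilobase of RefSeq length. Because the method reads 3' ends, counts are not spread over the length, and values per kilobase raise short RNAs relative to longer ones. Per kilobase, Rn7sk averaged 34409 CPM in GFP-Mkrn3 inputs and 32161 CPM in GFP inputs, and Rny3 260 CPM in GFP-Mkrn3 inputs and 286 CPM in GFP inputs. Per kilobase, Rny1 averaged 170 CPM in GFP-Mkrn3 inputs and 201 CPM in GFP inputs, and Rn7s2 3.50 CPM in GFP-Mkrn3 inputs and 9.94 CPM in GFP inputs. The ranges of Rny3 and Rny1 overlapped across the GFP inputs. Within each of these libraries Rny3 had more counts than Rny1, at 233 and 222, 240 and 151, and 231 and 160. The same held within each GFP-Mkrn3 input library. Since the method reads from poly(A) tails, the CPM values cover only RNA molecules that entered the libraries, and what share of each RNA did so was not tested.

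In the fractionation table all 8 rows had 0 counts in all 12 libraries. The 12 libraries hold 6303670 counts in all, so a count of 0 allows up to 0.476 CPM over all libraries, and 3.95 to 8.01 CPM in a single library. The RIP inputs, in a table of their own that was scaled separately, held Rn7sk near 1% of counts and Rny1 and Rny3 above these limits, while the means of Rn7s2, 1.05 CPM in GFP-Mkrn3 inputs and 2.97 CPM in GFP inputs, lay below the limit of a single library. None of the 5 comparisons of that experiment could be fitted for these genes, and 0 of 5033 tested genes are among them.

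Other short RNAs did not differ between the tables in 1 direction. Leaving out the rows of 7SK, 7SL and Y RNAs, the annotated class misc_RNA summed to 21.5 to 61.1 CPM in cytoplasm and 29.2 to 62.5 CPM in total RNA, with 4.99 to 14.8 CPM in the RIP inputs. Small Cajal body RNAs summed to 0 CPM in cytoplasm and 0 to 11.9 CPM in total RNA, with 185 to 239 CPM in the RIP inputs. Small nuclear RNAs summed to 6.20 to 60.2 CPM in cytoplasm and 33.9 to 72.4 CPM in total RNA, with 164 to 1001 CPM in the RIP inputs. The remaining misc_RNAs thus stood higher in the fractionation table and these 2 classes lower. Small nucleolar RNAs summed to 0 to 18.7 CPM in cytoplasm, 8.48 to 59.4 CPM in total RNA and 39.9 to 60.5 CPM in the RIP inputs, where the last 2 ranges overlap. Mitochondrial tRNAs stood higher in the fractionation table, with 3772 to 5765 CPM in cytoplasm, 3495 to 4478 CPM in total RNA and 7.18 to 15.3 CPM in the RIP inputs.

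Genes known to lie on the strand opposite to another gene also differed between the tables; they were picked after their values were seen. Tsix, the antisense transcript of Xist, stood at 2536 to 3174 CPM in wt total RNA and 5.67 to 29.2 CPM in Mkrn3ox total RNA. It stood at 56.7 to 107 CPM in wt cytoplasm, 8.01 to 15.9 CPM in Mkrn3ox cytoplasm and 0 to 0.576 CPM in RIP inputs. Xist stood at 209 to 275 CPM in wt total RNA, 0 CPM in Mkrn3ox total RNA and 48.1 to 70.2 CPM in RIP inputs. In cytoplasm it stood at 2.07 to 6.87 CPM in wt and 0 to 10.7 CPM in Mkrn3ox cells. The 2 lines thus differed at this locus in total RNA. mt-Nd6, encoded on the other strand of mitochondrial DNA than mt-Nd5, stood at 87939 to 232303 CPM in fractionation libraries and 1204 to 2540 CPM in RIP inputs. mt-Nd5 itself stood at 337 to 1178 CPM in fractionation libraries and 590 to 1021 CPM in RIP inputs. The sources used here do not give the strand on which each table was counted, and its part in the 0 counts of 7SK, 7SL and Y RNAs was not tested.

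Other classes of short RNA did not share one direction in the pull-downs. With GFP-Mkrn3, where 13.9% of all tested genes were called higher and 12.8% lower in IP than in input (edgeR, adjusted p under 0.05), 1 small nuclear RNA was called higher and 5 lower of 10 tested, with a median log2 change of -1.69. Of 18 small nucleolar RNAs 3 were called higher and 0 lower (median 1.15), and of 7 small Cajal body RNAs 1 higher and 0 lower (median 0.08). With GFP, where 25.1% of genes were called higher and 25.2% lower, 1 small nuclear RNA was higher and 7 were lower (median -1.97). Of small nucleolar RNAs 8 were higher and 0 lower with GFP (median 0.99), and of small Cajal body RNAs 4 higher and 0 lower (median 0.61). Both mitochondrial ribosomal RNAs were called lower with either plasmid, with medians of -5.74 for GFP-Mkrn3 and -3.99 for GFP. Of 3 tested mitochondrial tRNAs, 0 were called higher and 3 lower with GFP-Mkrn3 (median -2.41). With GFP, 0 of them were higher and 2 lower (median -1.13). Scaling by library size alone changed the balance over all genes to 2599 higher and 1263 lower with GFP-Mkrn3, against 1812 and 1675 on the TMM scale, and to 2554 higher and 3952 lower with GFP, against 3274 and 3291.

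**Figure D3:**
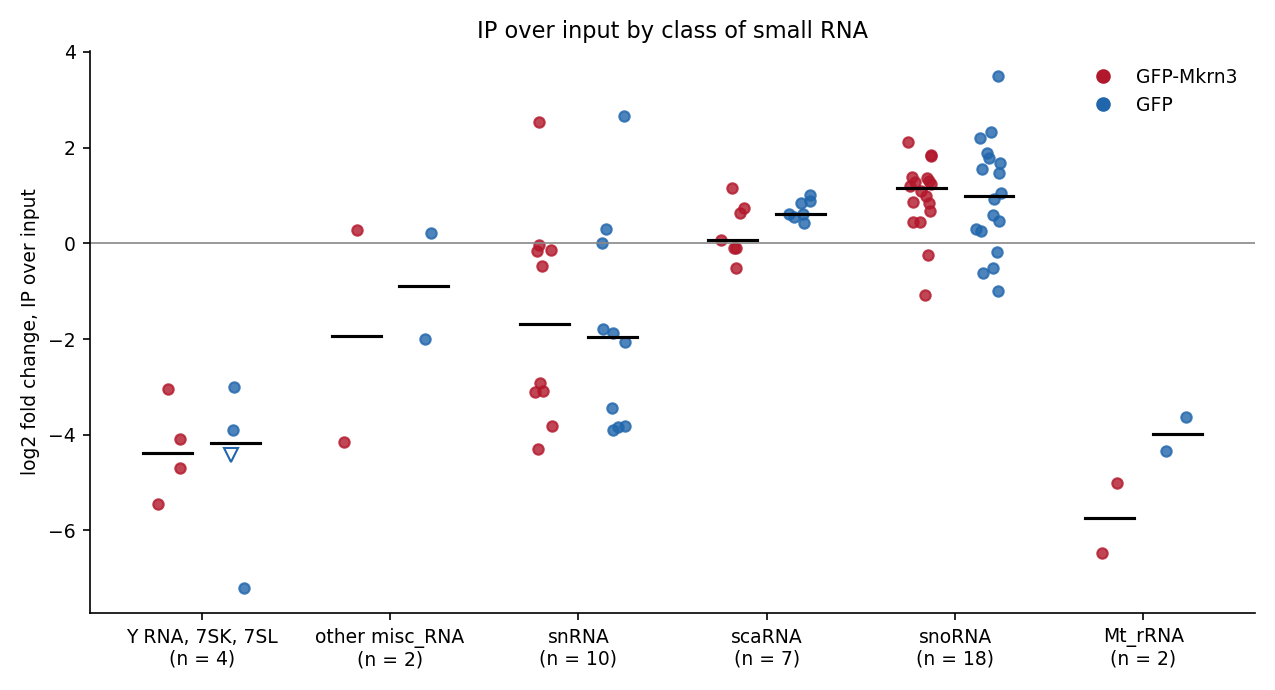
Log2 fold change of IP over input for the tested short RNAs of the classes drawn, with a line at each median. GFP-Mkrn3 is in red to the left of GFP in blue. Mitochondrial tRNAs and the class rRNA are not drawn. The open triangle is the bound for Rn7s2 with GFP, which the median of its column includes; the Y, 7SK and 7SL RNAs and the mitochondrial ribosomal RNAs lie below 0 throughout, and most small nucleolar RNAs lie above it.

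Of the other short RNAs made by RNA polymerase III or otherwise related, 12 of 15 listed were in the tables and 3 were tested. Bc1, a short RNA of dendrites in rodents, was called lower in IP with both plasmids. It averaged 45.2 ± 12.3 CPM in GFP-Mkrn3 IPs and 127 ± 15.6 CPM in GFP-Mkrn3 inputs (log2 change -1.50, edgeR adjusted p = 0.00604). It averaged 10.7 ± 1.31 CPM in GFP IPs and 91.6 ± 82.1 CPM in GFP inputs (log2 change -3.08, edgeR adjusted p = 1.33e-05; SD, n = 3 each), and the log2 change was -2.06 without replicate 1 of the GFP input. Scarna2, a Cajal body RNA, averaged 129 ± 16.6 CPM in GFP IPs and 64.3 ± 23.3 CPM in GFP inputs, a log2 change of 1.00 that passed the test (edgeR, adjusted p = 0.00039). Bc1 thus fell with both plasmids and Scarna2 rose with GFP.

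The genes with the most similar pattern over the 12 RIP libraries were ranked by Pearson's r of centred log2 CPM with the mean of Rn7sk, Rny1, Rny3 and Rn7s2. The 6 highest were R3hdm4 (r = 0.992), F12 (0.989), Kmt2d (0.989), the small nuclear RNA Gm24265 (0.986), Magea9 (0.985) and Tnrc18 (0.985). The 4 RNAs themselves had r of 0.989 for Rny1, 0.983 for Rny3, 0.974 for Rn7sk and 0.936 for Rn7s2. The r values follow the split into IP and input libraries, which all of these genes share, and are given as a description. The size differed widely: F12, the coagulation factor XII gene, had log2 changes of -4.14 with GFP-Mkrn3 and -4.38 with GFP, and Gm24265 -3.09 and -3.84 with the same plasmids, while R3hdm4 had only -0.65 and -0.59.

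The mRNAs of the proteins that bind, protect or make these RNAs were measured as lists, and in the inputs 0 of their tested members were called in any list. Of 6 tested mRNAs of Y RNA proteins, 2 were higher and 2 lower in GFP-Mkrn3 IP than in its input, where 13.9% of all genes were called higher and 12.8% lower. Mov10, an RNA helicase, rose by 0.61 on the log2 scale and Ptbp1, a splicing regulator, by 0.53, and Ncl, which encodes nucleolin, fell by 0.80 (edgeR adjusted p = 0.00379, 0.0043 and 0.000488). Puf60, a splicing factor that binds Y RNA complexes, fell by 0.28 with GFP-Mkrn3 (edgeR adjusted p = 0.016), a call lost without 3 of the 6 libraries. With GFP, where 25.1% of all genes were called higher and 25.2% lower, 1 was higher and 2 were lower. Puf60 fell by 0.52 with GFP, Ssb, which encodes the La protein, fell by 0.43, and Mov10 rose by 0.52 (edgeR adjusted p = 4.92e-05, 0.00684 and 0.00518). Ro60, the core Y RNA protein, passed in neither of these comparisons. The list was mixed in direction, with a median of -0.29 with GFP-Mkrn3 and of 0.12 with GFP.

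Of the 7 mRNAs of the 7SK complex and P-TEFb, 1 was higher and 1 lower with GFP-Mkrn3, and 2 were higher and 0 lower with GFP. Over all genes, 13.9% were called higher and 12.8% lower with GFP-Mkrn3, and 25.1% higher with GFP; 1 or 2 of 7 lie near these shares. Ccnt2, a cyclin T of P-TEFb, rose by 0.54 with GFP-Mkrn3 and by 0.52 with GFP (edgeR adjusted p = 0.00299 and 0.00162). Ccnt1, another cyclin T, rose by 0.49 with GFP (edgeR adjusted p = 0.00137), and Mepce, the capping enzyme of 7SK, fell by 0.34 with GFP-Mkrn3 (edgeR adjusted p = 0.00598). Hexim1, Hexim2, Larp7 and Cdk9 did not pass in either. The list median was 0.07 with GFP-Mkrn3, next to 0.0285 for all genes.

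Of 9 tested mRNAs of the signal recognition particle and its receptor, 0 were higher and 2 lower with GFP-Mkrn3, and 2 were higher and 5 lower with GFP. Over all genes, 13.9% were called higher and 12.8% lower with GFP-Mkrn3, and 25.1% higher and 25.2% lower with GFP. Srp14, whose protein binds the Alu end of 7SL RNA, averaged 52.4 ± 1.49 CPM in GFP-Mkrn3 IPs and 76.2 ± 5.35 CPM in GFP-Mkrn3 inputs, and 26.5 ± 2.44 CPM in GFP IPs and 72.9 ± 2.12 CPM in GFP inputs (SD, n = 3 each). It fell by 0.54 with GFP-Mkrn3 and by 1.46 with GFP (edgeR adjusted p = 0.000638 and 3.49e-09). Its partner Srp9 fell by 0.74 with GFP (edgeR adjusted p = 0.00642), and Srp72 fell by 0.34 with GFP-Mkrn3 (edgeR adjusted p = 0.0101). With GFP, Srp19 fell by 0.55 and Srp54c rose by 0.53 (edgeR adjusted p = 0.0417 and 0.0306), calls lost without 5 and 4 of the 6 libraries. Srp14 is thus the member of this list with the largest called change in both pull-downs.

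The 10 tested mRNAs of RNase P and RNase MRP proteins had the largest median difference between the plasmids of the 6 lists, 0.96 on the log2 scale. With GFP-Mkrn3 0 were called, where 13.9% of all genes were called higher and 12.8% lower. Of the 10, 1, Rpp21, had an unadjusted p under 0.05, as did 5082 of all 13052 tested genes. With GFP 1 was higher and 7 were lower, where 25.1% of all genes were called higher and 25.2% lower. The list median with GFP was -0.66, against -0.0045 for all genes. Rpp38, a kink-turn binding subunit, averaged 5.03 ± 0.571 CPM in GFP-Mkrn3 IPs and 4.27 ± 1.57 CPM in GFP-Mkrn3 inputs, and 1.66 ± 0.416 CPM in GFP IPs and 5.97 ± 1.27 CPM in GFP inputs (SD, n = 3 each). It fell by 1.84 with GFP (edgeR adjusted p = 0.000158), and Pop5 and Pop7 fell by 1.30 and 1.29 (edgeR adjusted p = 0.000467 and 1.86e-05). Rpp21 fell by 1.12 with GFP (edgeR adjusted p = 0.0247), a call lost without 3 of the 6 libraries. The difference of the 2 IP-to-input changes, GFP-Mkrn3 minus GFP, was called above 0 for 4 of the 10 and below 0 for 1, where 13.2% of all genes were called above 0 and 11.1% below. It was 2.09 for Rpp38, 1.91 for Rpp21, 1.44 for Pop7 and 1.34 for Pop5 (edgeR adjusted p = 0.00233, 0.0125, 0.000708 and 0.0108). Scaling by library size alone changed the balance of this comparison over all genes to 2845 above 0 and 603 below, against 1724 and 1454 on the TMM scale, and moved the median over all genes to 0.23, against 0.04.

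**Figure D4:**
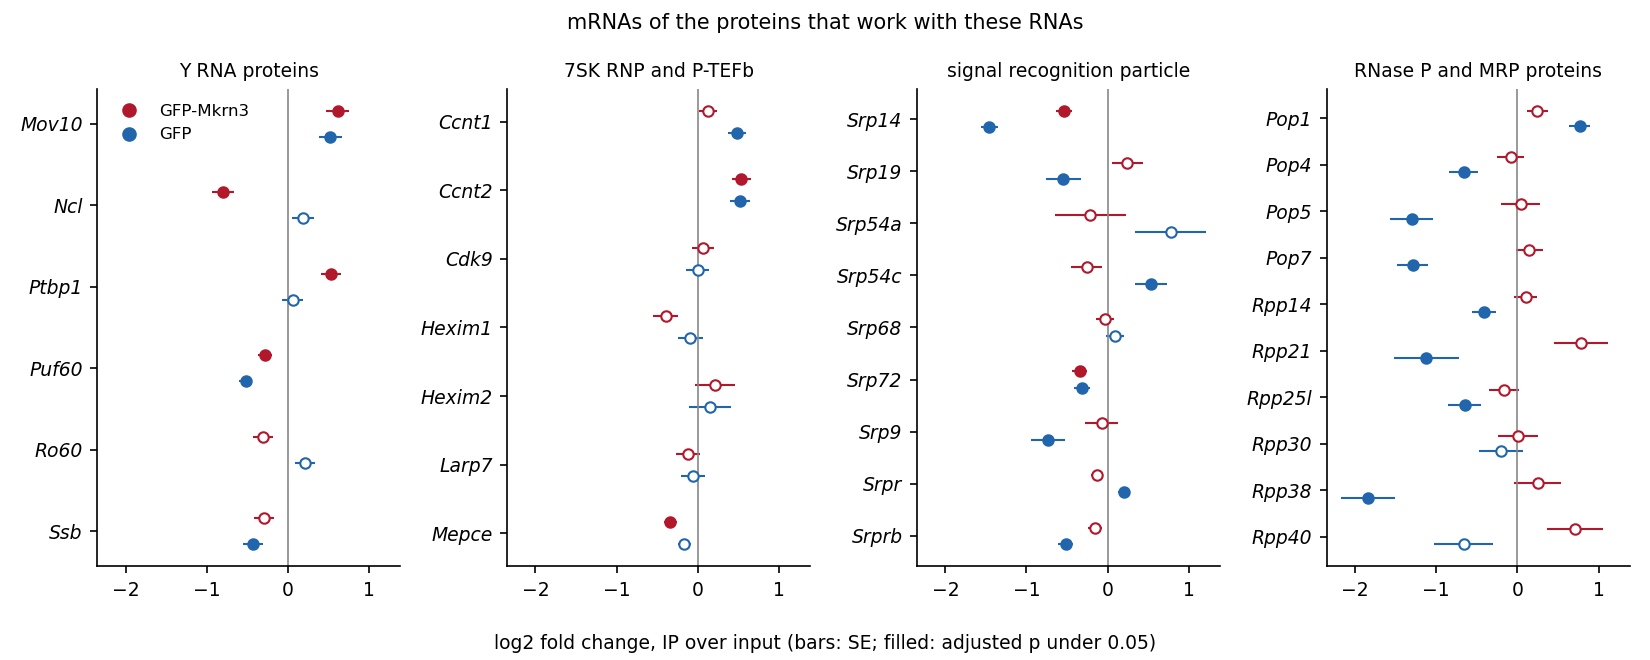
Log2 fold change of IP over input, with SE bars, for the mRNAs of proteins that work with Y RNAs, 7SK, 7SL and the ribozyme RNAs, with GFP-Mkrn3 in red above GFP in blue and filled points where the adjusted p was under 0.05. The RNase P and MRP mRNAs lie near 0 with GFP-Mkrn3 and mostly below 0 with GFP.

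Of the 29 tested mRNAs for transcription by RNA polymerase III, 3 were higher and 4 lower with GFP-Mkrn3, and 11 were higher and 8 lower with GFP. Over all genes, 13.9% were called higher and 12.8% lower with GFP-Mkrn3, and 25.1% higher and 25.2% lower with GFP, so 3, 4 and 8 of 29 lie near these shares. Snapc5, a subunit of the SNAPc factor that starts transcription of 7SK and Y RNA genes, fell by 1.14 with GFP-Mkrn3 and by 1.98 with GFP (edgeR adjusted p = 0.000214 and 2.83e-07), and Snapc4, the large DNA-binding subunit, rose by 0.98 with GFP-Mkrn3 (edgeR adjusted p = 0.000141). Polr3k, a polymerase III subunit, fell by 0.59 with GFP-Mkrn3, and Gtf3c6, a TFIIIC subunit, by 0.55 (edgeR adjusted p = 0.00689 and 0.00214). Maf1, the repressor of RNA polymerase III, fell by 0.96 with GFP, and Polr3a and Polr3b, the catalytic core, each rose by 0.86 with GFP (edgeR adjusted p = 2.05e-06, 2.53e-07 and 5e-05).

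In the fractionation experiment, 10 mRNAs of this list were tested, 4 of the Y RNA proteins, 2 of the 7SK complex, 2 of the signal recognition particle and 0 of RNase P and MRP. In total RNA, where 3.56% of 5033 genes were called higher and 3.83% lower in the Mkrn3ox than in the wt line, 2 of the 10 were higher and 0 lower, and in cytoplasm, where 4.31% were called higher and 6.14% lower, 1 was higher and 1 lower. Brf2, an initiation factor of 7SK and Y RNA genes, fell by 1.47 in cytoplasm (edgeR adjusted p = 0.0107). Tbp, the TATA-binding protein, rose by 0.68 in total RNA (edgeR adjusted p = 0.0371), a call lost without 5 of the 6 libraries. Unscaled, Tbp stood at 529 to 1275 CPM in fractionation libraries and 35.0 to 50.7 CPM in RIP inputs, and Psmb1, which lies 1611 bp away, at 76.6 to 329 CPM in fractionation libraries and 333 to 393 CPM in RIP inputs. The call of Brf2 was lost without 2 of the 6 libraries. Brf2 stood at 31.9 to 145 CPM in fractionation libraries and 13.7 to 21.2 CPM in RIP inputs, unscaled, and Adgra2, which overlaps it, at 11.9 to 36.4 CPM in fractionation libraries and 47.8 to 59.4 CPM in RIP inputs. With no strand setting given, the reads of the overlapping genes Brf2 and Adgra2 cannot be told apart. The part of the counted strand in the calls of Brf2, Tbp and the other genes of this experiment was not tested. The other lists had 0 calls in both comparisons. Scaling by library size alone changed the balance over all genes to 252 higher and 163 lower in total RNA, against 179 and 193, and to 507 higher and 189 lower in cytoplasm, against 217 and 309.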

How the data were processed

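RNA of GT1-7 cells was measured in 24 libraries, 12 per experiment, 3 in each of 8 groups taken from the labels. The deposited tables hold raw counts per gene, as whole numbers; per the submitters' processing notes the tools were cutadapt, STAR and HTSeq with the mm10 build, and the sources used here give no versions, gene annotation, strand setting or use of molecular identifiers. All 57010 rows were kept; 52029 identifiers matched the name table and 1606 rows carry no gene name.

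Each experiment had its own fit of group means in edgeR 4.0.16 (R 4.3.3), after filterByExpr by group and TMM scaling. The test was the two-sided quasi-likelihood F test, p-values were adjusted over all tested genes by Benjamini-Hochberg, and an adjusted p under 0.05 was a call. Comparisons that chose the RNAs, and differences built from them, are given without a test. For counts of 0 the limit is 3 counts, and 95% intervals are exact. Levels of classes and of neighbouring genes are CPM of the unscaled library total; other levels are on the TMM scale. The RNAs, the lists of related genes and the rules were chosen with earlier results of these data known. Genes named are the 7 RNAs, up to 4 called members per list and comparison by largest change, the 6 genes with the most similar pattern at a mean of at least 20 counts (log2 CPM with a prior count of 2), Bc1 and other listed short RNAs, markers, and genes within 5 kb. The fits were tested on simulated data. Alternatives were DESeq2 1.42.0 as test and as scaling, library size alone, filters, the compared groups alone, replicate blocks and leaving out each library. Calls of listed genes between the 2 IPs are not given, and 1 gene of the polymerase III list that this rule selects is not reported here. Sequences of these RNAs were not used here. Figures used Python 3.11.15 and matplotlib 3.10.9.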

Additional observations from a re-analysis of the deposited data

Results flagged for a closer look

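For 15 named mRNAs and short RNAs of the related lists, the IP-to-input change differed between the plasmids by a test of the difference itself (edgeR's quasi-likelihood test of GFP-Mkrn3 minus GFP, adjusted p under 0.05; log2 values). Over all 13052 tested genes, 13.2% were called above 0 and 11.1% below by the same test. Of RNase P and MRP proteins, the difference was 2.09 for Rpp38, 1.91 for Rpp21, 1.44 for Pop7 and 1.34 for Pop5. That list of 10 tested had 4 called above 0 and 1 below. Of RNA polymerase III transcription, it was 1.20 for Gtf3a, the factor of 5S RNA genes, 0.87 for Snapc2, 0.83 for Snapc5 and -0.82 for Gtf3c3, in a list of 29 tested with 5 called above 0 and 7 below. Of the signal recognition particle and its receptor, it was 0.92 for Srp14, -0.79 for Srp54c, 0.36 for Srprb and -0.34 for Srpr. Of Y RNA proteins, it was -0.99 for Ncl and -0.52 for Ro60, and among other short RNAs it was -1.11 for Scarna2. The calls of Ro60, Srp54c, Srprb, Srpr and Snapc5 were lost without at least 1 of the 12 RIP libraries. Replicate groups of 3 were too small to look for single libraries that stand apart.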

How the results depend on the processing

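In GFP-Mkrn3 input against GFP input, none of Rn7sk, Rny3 and Rny1 was called without any of the 6 libraries or in 9 other settings. In the fractionation table all rows stayed at 0. The sign of Rny1 between the inputs turned to 0.11 without replicate 1 of the GFP input (edgeR adjusted p = 0.959), the library with its highest count, and ran down to -0.38 without the others. IP against input, leaving out 1 library gave -4.27 to -3.89 for Rn7sk with GFP-Mkrn3 and -3.05 to -2.95 with GFP, -5.59 to -5.34 and -7.34 to -6.87 for Rny1, -5.00 to -4.46 and -4.57 to -3.66 for Rny3, and -4.27 to -2.53 for Rn7s2 with GFP-Mkrn3. The fitted value of Rn7s2 with GFP, -7.72 (-7.90 to -7.53 without 1 library), is no bound at 0 counts, and DESeq2 gave -6.84; the cause was not tested. The replicate numbers did not pair the libraries (correlations of same-numbered deviations -0.146 to 0.0923 in RIP and -0.0377 to 0.0393 in fractionation). With the number as a block across groups, Rn7sk stood at -4.09 with GFP-Mkrn3 and -3.00 with GFP. None of Rn7sk, Rny3 and Rny1 was called between inputs with that block. Of 85 calls among related mRNAs and short RNAs, 30 were lost in at least 1 setting and 0 reversed. Those lost most often include Ro60 and Srp54c in the difference between plasmids, and Tbp between the lines. Counts over all genes moved by over 1.5 times in Mkrn3ox against wt (total RNA, 179 higher and 193 lower, down to 112 and 117 without 1 library and to 118 higher with no filter; cytoplasm, 217 higher, down to 132 without 1 library and to 134 with no filter). They also did so between the inputs (1 and 1, against up to 17 and 10 with no filter, and 5 and 1 with DESeq2), and in GFP-Mkrn3 IP against input without replicate 2 of its input (1195 higher, against 1812). Counts of Rn7s1, Rmrp and Rpph1 in the RIP experiment, and of Rn7s2 in the fractionation experiment, were too few to give a direction. The cause of the low counts was not tested. The ratio of Rny1 to Rny3 in GFP IPs, left-out libraries being chosen after seeing the data, was 0.0556 to 0.118 without 1 library, against 0.0714.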
